A study of Mus musculus with 2 samples.

Results

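The regions described here are the stretches of the mouse genome, outside genes but near them, at which peaks of DLX2 CUT&Tag were called in both replicates. A stretch was kept where a peak of each replicate covered it by at least 1 bp on chromosomes 1 to 19, where it overlapped no annotated long non-coding RNA (lncRNA) gene, and where it lay over 2 kb and up to 100 kb outside the nearest protein-coding gene. Of the 10812 shared regions on these chromosomes, 3151 met this rule, or 29.1% (95% Wilson interval 28.3 to 30.0%). Their nearest coding genes numbered 2283. The remaining shared regions lay in coding gene bodies (4657), within 2 kb of a coding gene end (697), in lncRNA genes (924) or farther than 100 kb from any coding gene (1383). All coordinates are those of build mm10 (GRCm38).

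CUT&Tag uses an antibody to direct a transposase to a DNA-bound protein, so that sequenced fragments accumulate where that protein sits. The assay was run with an antibody to DLX2 on cells of the maxillary process, the paired facial prominence from which the upper jaw grows, from E12.5 wildtype C57BL/6 mice. The 2 libraries, called replicate 1 and replicate 2, form 1 group, and no control library or other genotype was used here, so every value below is a description and none is a test between conditions. Per the labels the chromatin was sonicated and precipitated, whereas the study's methods describe transposase tagging, and neither says whether the replicates came from separate embryos.

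DLX2 is a homeodomain transcription factor of the branchial arches and forebrain, and homeodomain proteins of its family bind short AT-rich sequences. Transcription factors of this kind often act through enhancers, which lie between genes or in introns and can control a promoter from a distance. Genes that direct development are often flanked by wide stretches without other genes, and the nearest gene is a convention for naming an enhancer-like site, not evidence of its target.

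The rule keeps the regions away from the starts of coding genes and out of lncRNA genes, so the sequence context that can be shown is that of regions just before the start of a lncRNA gene. The RefSeq start windows used here run from 250 bases before to 50 bases after a gene's start, and 6 windows of lncRNA genes overlapped a region although the region lay outside the lncRNA gene itself. The 4 shown are those with the highest fold (*Gm39282* and *Gm52821*), the longest overlap (*Gm39215*) and a repeated sequence with RUNX letters (*Gm39449*, near *Rbms3*). Each is written 5′ to 3′ on the strand of its lncRNA gene, from RefSeq (GRCm38.p6), with capitals for the bases that the shared region covered.
*Gm39282*, chr8:125679693-125679992, minus strand: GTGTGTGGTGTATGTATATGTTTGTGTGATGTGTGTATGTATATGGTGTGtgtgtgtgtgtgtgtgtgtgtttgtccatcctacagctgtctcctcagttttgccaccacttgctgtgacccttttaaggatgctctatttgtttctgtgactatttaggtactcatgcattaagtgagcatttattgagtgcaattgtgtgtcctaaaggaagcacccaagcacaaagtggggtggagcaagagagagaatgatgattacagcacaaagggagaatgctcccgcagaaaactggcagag
*Gm52821*, chr5:112239604-112239903, minus strand: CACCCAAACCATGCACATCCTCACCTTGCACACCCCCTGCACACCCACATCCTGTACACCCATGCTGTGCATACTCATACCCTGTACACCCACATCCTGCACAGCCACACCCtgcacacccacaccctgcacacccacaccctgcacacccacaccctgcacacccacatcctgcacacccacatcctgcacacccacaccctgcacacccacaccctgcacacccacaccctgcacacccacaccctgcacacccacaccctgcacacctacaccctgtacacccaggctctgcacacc
*Gm39215*, chr8:86826181-86826480, minus strand: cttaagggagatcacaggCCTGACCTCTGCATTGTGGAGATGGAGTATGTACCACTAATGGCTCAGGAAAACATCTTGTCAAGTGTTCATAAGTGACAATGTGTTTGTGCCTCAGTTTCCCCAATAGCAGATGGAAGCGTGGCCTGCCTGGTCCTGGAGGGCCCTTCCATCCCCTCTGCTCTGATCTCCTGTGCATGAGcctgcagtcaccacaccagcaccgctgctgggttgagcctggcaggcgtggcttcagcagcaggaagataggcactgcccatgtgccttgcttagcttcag
*Gm39449*, chr9:116524881-116525180, plus strand: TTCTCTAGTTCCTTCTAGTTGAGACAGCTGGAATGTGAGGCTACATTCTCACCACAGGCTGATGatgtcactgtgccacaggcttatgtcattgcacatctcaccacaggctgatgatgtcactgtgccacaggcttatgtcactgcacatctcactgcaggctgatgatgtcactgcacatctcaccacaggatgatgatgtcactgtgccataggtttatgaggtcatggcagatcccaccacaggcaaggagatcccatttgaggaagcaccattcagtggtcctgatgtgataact

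The *Gm39282* window, 6.58 kb from *Map10*, held a run of alternating G and T bases, most of it outside the covered bases. The region that covered the window's first 50 bases had a fold enrichment of 6.26 in replicate 1 and 7.87 in replicate 2. Fold enrichment, as given by the authors' peak caller, divides the fragments at a peak's summit by the background expected around it, with 1 added to both. The *Gm52821* window, near *Cryba4*, a lens crystallin gene with 4 regions, held the 9 bases CTGCACACC 13 times on the strand shown. Most of these copies lay outside the 112 bases that its region covered, and that region had folds of 5.55 and 6.18. The *Gm39449* window held the 9 bases ATGTCACTG 5 times, all outside the 64 bases that its region covered, at folds of 3.49 and 4.28. Over all 32851 start windows, 0.563% held any run of 9 bases 5 times or more without overlap. Of the 6 overlapped windows, 2 did so. The limit of 5 equals the count at *Gm39449*, a window shown for its repeat, so these shares are not a test. The *Gm39215* window, 14.7 kb from *N4bp1*, held no run of 9 bases more than 1 time. Its 181 covered bases had folds of 3.60 and 6.19 and a GC content of 51.4%. The whole window had 54.7%, beside a median of 52.7% over all windows. Whether repeats have a part in the folds was not tested.

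Letters of known motifs were sought on both strands of these windows, each motif on its own, so that 1 base could count for more than 1 motif. The homeodomain core TAATTA was in none of the 6 windows and in 5.29% of all start windows. The RUNX letters ACCACA were in 3 of the 6 and in 16.8% of all windows, and in 2 of the 6 they lay in the covered part. At *Gm39282* the covered match, read as TGTGGT, lay in a stretch of only G and T bases. At *Gm39449* the letters also recurred outside the covered bases. The KLF letters GGGTGTG were in 1 of the 6 and in 7.95% of all windows. That window was *Gm52821*, where the letters, read as CACACCC, recurred with its repeat. The E-box CACGTG, the forkhead letters GTAAACA and the POU letters ATGCAAAT were in none of the 6, and in 7.15%, 3.65% and 1.74% of all windows. A match or its absence in 6 windows describes only these letters in these windows, and the sequence of the other regions was not analysed here.

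The regions were short and rested on few fragments. Their median length was 156 bp. The fold in replicate 1 had a median of 5.05 (quartiles 4.33 and 6.18) and a highest value of 20.6. Replicate 2 had a median of 5.24 (quartiles 4.28 and 6.48) and a highest value of 23.7. The fragments at the summit, recovered from the fold and the p-value, had a median of 7 in replicate 1 and 12 in replicate 2. An exact 95% Poisson interval on 7 fragments runs from 2.81 to 14.4, and on 12 from 6.20 to 21.0. At this depth, regions that differ by less than these intervals cannot be ranked. Spearman's correlation between the replicates' folds was 0.397 over the 3151 regions, where each point has the same sequence in both replicates, and 0.440 over all shared regions.

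Regions in this location had higher folds than those at gene ends and lower folds than those far from genes. The lower fold of the 2 replicates was 5 or more in 1173 regions, or 37.2% (interval 35.6 to 38.9%). The share was 22.8% at coding gene ends (19.9 to 26.1%), 32.2% in gene bodies (30.9 to 33.6%), 37.6% in lncRNA genes (34.5 to 40.7%) and 44.5% beyond 100 kb (41.9 to 47.2%). Intervals on shares cover counting error only. A lower fold of 10 or more was found in 23 of the regions.

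Each replicate alone placed a similar share of its peaks here. In replicate 1, 7258 peaks, or 26.1%, met the same location rule, and in replicate 2 15460 peaks, or 25.3%, a mean of 25.7% ± 0.563 (SD, n = 2). Of the replicate 1 peaks in this location, 43.3% were met by a replicate 2 peak (42.1 to 44.4%), against 30.9% at coding gene ends (29.1 to 32.8%) and 36.3% in gene bodies (35.5 to 37.2%). Of the replicate 2 peaks, 19.6% were met by a replicate 1 peak (18.97 to 20.2%), against 11.9% at gene ends and 16.1% in gene bodies. Replicate 2 had more peaks in every class, with 62093 in all beside 28061 in replicate 1. Peaks of this location were thus met more often than those at gene ends or in gene bodies in both replicates, while lncRNA genes (42.4% and 19.9%) and the stretches beyond 100 kb (42.0% and 19.8%) had shares close to theirs.

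The regions were spread almost evenly over the distances the rule allows. The median distance to the nearest coding gene was 23.3 kb, with quartiles of 10.3 and 48.7 kb. To allow for the width of the gaps, regions were counted per Mb of eligible sequence, which is every base at which a region could have met the rule, 605.65 Mb in all. The density was 4.90 regions per Mb at 2 to 5 kb, 5.05 at 5 to 10 kb, 5.52 at 10 to 20 kb, 5.44 at 20 to 50 kb and 4.90 at 50 to 100 kb. In each replicate alone the density was lowest in the farthest bin, at 10.6 peaks per Mb in replicate 1 and 22.3 in replicate 2, against 12.4 and 28.2 at 2 to 5 kb. The region nearest to the inner limit lay 2.003 kb from *Pepd*, a peptidase gene, and one 1.987 kb from *Entpd7* fell outside it. At the outer limit a region 99.867 kb from *Efnb2*, an ephrin ligand gene, was kept and one 100.024 kb from *Hlx*, a homeobox gene, was not.

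**Figure D1:**
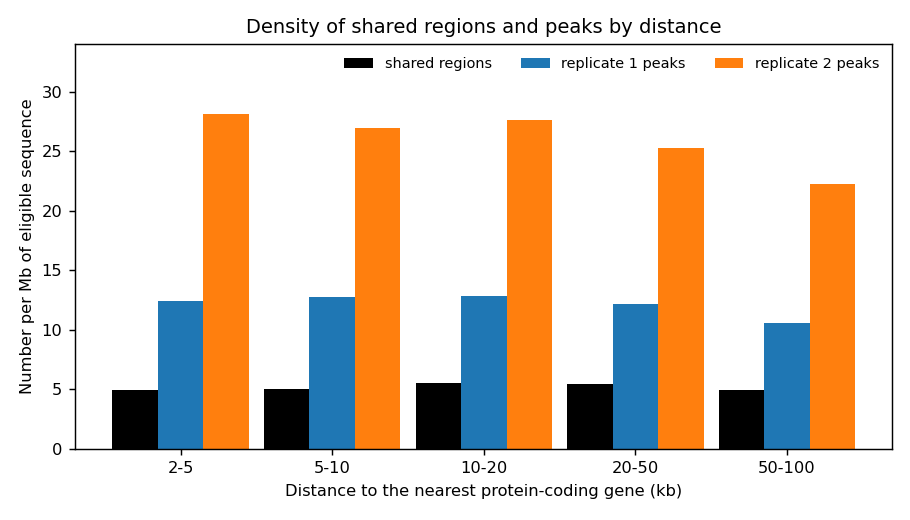
Shared regions and peaks of each replicate per Mb of eligible sequence (vertical axis) in 5 ranges of distance to the nearest protein-coding gene in kb (horizontal axis). The shared regions stay between 4.90 and 5.52 per Mb, and both replicates have their lowest bar at 50 to 100 kb.

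The 5′ side of genes held slightly more regions than the 3′ side. The strand was known for 16456 coding genes, 80.1% of those used, and 1363 of the 2467 regions nearest to them lay on the 5′ side, or 55.2% (53.3 to 57.2%). The 5′ side made up 53.3% of the eligible sequence around these genes, a share that the interval just reaches, and the density was 5.39 regions per Mb on the 5′ side and 4.98 on the 3′ side. In the single replicates, 53.1% of replicate 1 peaks and 53.3% of replicate 2 peaks lay on the 5′ side, close to the share of sequence.

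Most nearest genes had a single region. Of the 17009 coding genes with eligible sequence, 2283 had 1 or more, which is 13.4%, and 1702 of these had exactly 1. A further 391 genes had 2 regions, and 190 genes had 3 or more, which is 1.12% of the 17009. These 190 genes held 667 of the 3151 regions. There were 59 genes with 4 or more and 23 with 5 or more. Genes with several regions also had more room for them, with a median of 99.2 kb of eligible sequence for the genes with 3 or more and 14.7 kb for the genes with none, over the genes with a start window. Requiring a fold of at least 5 in each replicate left 25 of the 190 genes with 3 or more regions, and a −log10 q of at least 5 left only *Cbln4*, a secreted synaptic organizer gene named here for that count after the values were seen.

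The gene with the most regions was *Tmem121*, which encodes a transmembrane protein and borders the immunoglobulin heavy chain locus, with 9. All lay to the 3′ side between *Tmem121* and *Adam6b*, 15.1 to 86.9 kb from the gene, and 4 of them overlapped the annotated *Igh* locus. Their folds ran from 3.91 to 6.57 in replicate 1 and from 3.11 to 5.24 in replicate 2, both medians (4.45 and 3.99) below those of all the regions. They came from 8 peaks of replicate 1 and 6 of replicate 2, since neighbouring regions shared a peak, and the shortest was 4 bp long. The local background of these regions was high in both libraries, with medians of 2.68 and 2.73 times the library median. Leaving out regions with a background over 2 times the library median in both replicates took the count from 9 to 1.

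*Luc7l*, a U1 snRNP-associated splicing factor gene, came next with 8 regions, all between it and *Neurl1b*, 21.1 to 63.1 kb away. Folds ran from 3.91 to 6.07 in replicate 1 and from 3.00 to 6.17 in replicate 2, and the shortest region was 8 bp long. Here too the background was high, with medians of 2.26 and 2.42 times the library median, and the same limit took the count from 8 to 2. Per Mb of eligible sequence *Luc7l* stood first among genes with 5 or more regions, at 123. It was followed by *Rph3a* at 91.4, *Tmem121* at 84.7, *Foxl1* at 79.2 and *Suds3* at 75.1. The density over all genes was 5.20, but genes chosen for 5 or more regions within 100 kb must lie above it. Their excess over that value is therefore not a result.

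High background touched few regions in all. In 88 of the 3151 regions, or 2.79% (2.27 to 3.43%), it was over 2 times the library median in both replicates, against 231 of the other shared regions, or 3.02% (2.66 to 3.42%). *Tmem121* held 8 of the 88, *Luc7l* 6 and *Vmn1r2* 5. *Vmn1r2*, a vomeronasal receptor gene named after its values were seen, is the first coding gene kept on chromosome 4, and its 5 regions had medians of 7.44 and 7.49 times the library median. Without the 88 regions, 175 of the 190 genes still had 3 or more. Whether the background has a part in the calls at these genes was not tested.

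**Figure D2:**
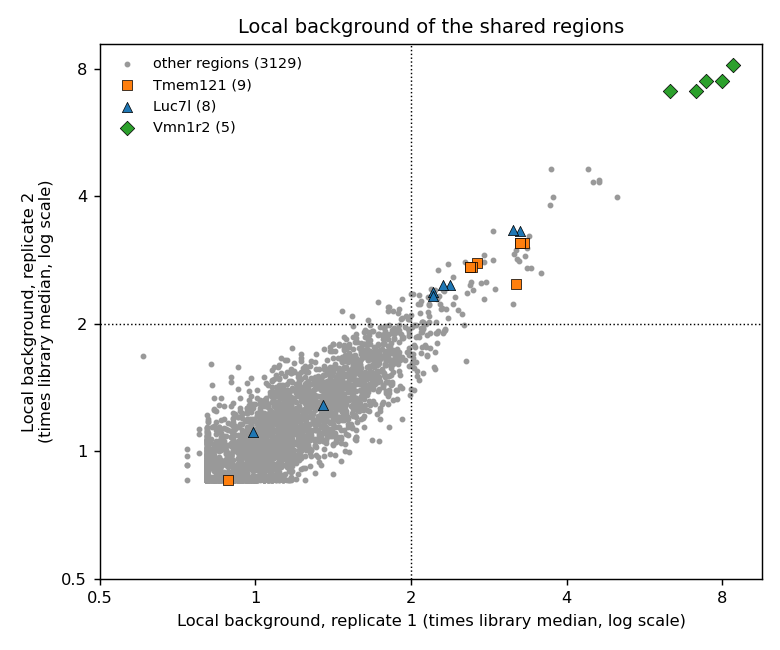
Local background of each region in replicate 1 (horizontal axis) and replicate 2 (vertical axis), as multiples of the library median on log scales, with dotted lines at 2. The regions nearest *Vmn1r2* sit above 6 in both replicates, and 8 of the 9 nearest *Tmem121* and 6 of the 8 nearest *Luc7l* lie beyond both lines.

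*Slc28a3*, a nucleoside transporter gene, had 7 regions at ordinary background (medians of 1.09 times the library median in both replicates). Of these, 6 lay on its 5′ side in the gap toward *Ntrk2*, which encodes the receptor of BDNF, within 75.2 kb of each other. The strongest, at chr13:58666247-58666498 and 55.4 kb from the gene, reached 8.14-fold in replicate 1 and 10.8-fold in replicate 2. The only region on the 3′ side, 60.5 kb away, had folds of 4.63 and 8.64. The other 5 had folds between 4.85 and 5.90 in replicate 1 and between 4.67 and 7.30 in replicate 2. Among these, the regions 38.5 and 49.7 kb from the gene were only 4 and 26 bp long.

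*Dok5*, an adaptor of receptor tyrosine kinases, had 6 regions, with 5 in the gap toward *Pfdn4* and 1 toward *Cbln4*. The farthest, 98.4 kb from the gene, was also the strongest, with folds of 11.3 and 12.1. A second, 14.6 kb away, had folds of 8.42 and 7.14. The remaining 4 had folds from 3.23 to 5.67 in replicate 1 and from 3.89 to 5.84 in replicate 2. A fold of 5 or more in both replicates was reached by 3 of the 6.

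*Foxl1*, a forkhead factor gene expressed in mesenchyme, had 6 regions, all in the 400 kb gap that separates it from *1700018B08Rik*. They lay 10.4 to 81.8 kb from *Foxl1*. Folds in replicate 1 were 5.25, 4.65, 5.89, 5.65, 6.82 and 4.51 in order of distance, and in replicate 2 they were 6.29, 6.29, 6.38, 5.88, 5.89 and 3.53. The closest 2 regions lay in 1 peak of replicate 2, and 4 of the 6 had a fold of 5 or more in both replicates. *Zfp326*, a zinc finger gene tied to splicing, likewise had 6 regions with 4 at that fold, all in the gap toward *Barhl2*, a homeobox gene, with folds of 4.36 to 6.50 in replicate 1 and 4.41 to 7.43 in replicate 2.

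Other genes with 6 regions were *Rph3a*, *Ipo5* and *Gm46320*. *Rph3a* encodes rabphilin, a synaptic vesicle protein, and 5 of its regions lay within 38.2 kb of each other on its 5′ side, toward the phosphatase gene *Ptpn11*. Their folds went from 4.19 to 7.82 in replicate 1 and from 3.30 to 6.61 in replicate 2. *Ipo5*, a nuclear import receptor gene, had 4 regions on the 5′ side and 2 on the 3′ side, with folds of 3.80 to 5.75 and 3.85 to 6.60. *Gm46320*, a predicted gene, had 5 regions in the gap toward *Vrk1* and 1 on the other side, with folds of 3.85 to 5.70 and 3.27 to 6.08. Only 1 region at each of *Ipo5* and *Gm46320* had a fold of 5 or more in both replicates.

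*Tbx5* and *Tbx3*, neighbouring T-box factor genes known for heart and limb development, were flanked by 5 and 4 regions. The gap between them held 4 of these, and 1 of the 4 was nearer to *Tbx5*. That region, 13.9 kb from *Tbx5*, had folds of 7.01 and 9.57. On the far side of *Tbx5*, toward *Rbm19*, the region at chr5:119955108-119955471 had folds of 8.21 and 9.85, while the other 3 had folds of 4.68 to 4.97 in replicate 1 and 4.39 to 5.60 in replicate 2. At *Tbx3* the folds were 4.66 to 5.97 in replicate 1 and 6.40 to 9.51 in replicate 2, and 2 of the 4 regions lay in 1 peak of replicate 2. In replicate 2, every region of *Tbx3* was above the median of all the regions, but in replicate 1 the lowest 2 were below it.

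The remaining 5 genes of the 15 with the most regions had 5 each. *Ajap1*, an adherens junction associated protein gene, had all 5 on its 3′ side in the gap toward *Nphp4*, with folds of 4.33 to 6.92 and 4.60 to 6.19. That gap held 10 regions in all, the other 5 of them nearer to *Nphp4*. *Sall3*, a zinc finger factor gene of limb and nervous system development, had 5 on 1 side, of which 2 lay in 1 peak of replicate 2, with folds of 3.89 to 6.85 and 3.69 to 6.87. *Slc22a12*, a urate transporter gene, had 5 on its 5′ side, with folds of 4.63 to 7.39 and 4.37 to 8.44. *Suds3*, a subunit gene of the Sin3 corepressor complex, had 5 on its 3′ side with folds of 3.37 to 6.48 and 5.52 to 8.33. *Kbtbd8*, a CUL3 ubiquitin ligase adaptor gene tied to neural crest specification, had 2 on the 5′ side and 3 on the 3′ side, with folds of 3.60 to 7.37 and 4.28 to 6.50.

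**Figure D3:**
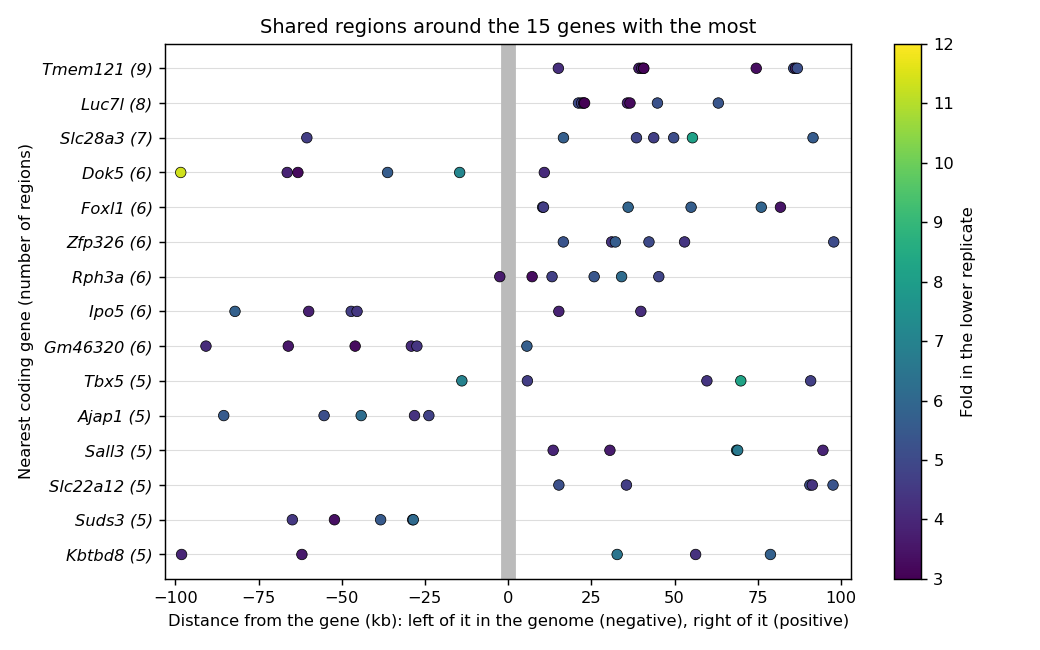
Position of each region around the 15 coding genes with the most (rows, number of regions in brackets), as distance in kb from the nearer gene end, left of the gene in genome order below 0 and right above 0, coloured by the fold in the lower replicate. The grey band is the 2 kb on either side that the rule leaves out, and the gene itself is not drawn to length. *Tmem121*, *Luc7l*, *Foxl1*, *Zfp326*, *Sall3* and *Slc22a12* have all their regions on the right.

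**Figure D4:**
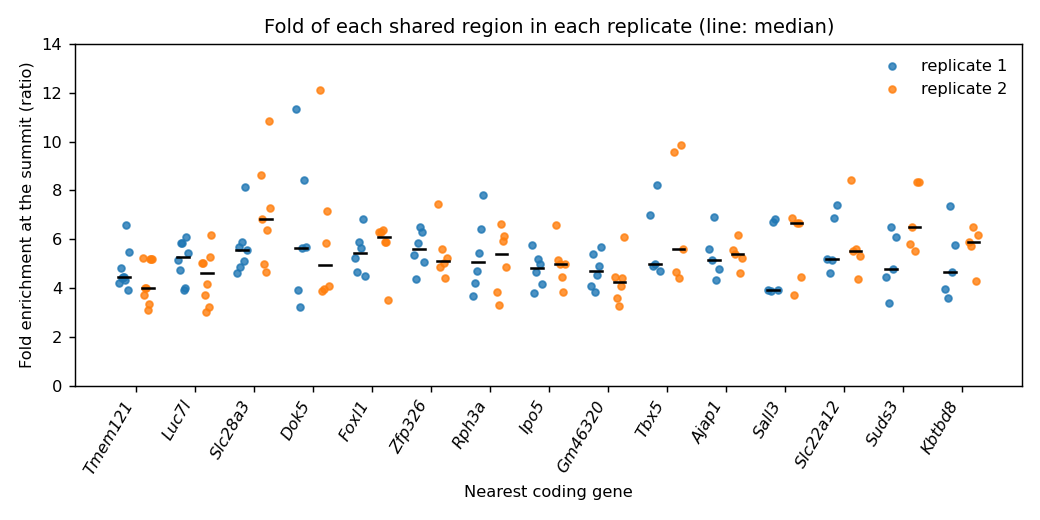
Fold enrichment (ratio, vertical axis) of every region of the same 15 genes in replicate 1 and replicate 2, 1 point per region, with a line at the median. The points of both replicates overlap at every gene, and the highest pair, 11.3 and 12.1, is at *Dok5*.

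Several regions often lay in the same gap between neighbouring coding genes, whichever of the bordering genes was nearer. Of the 2107 gaps with a region, 639 held 2 or more, 86 held 4 or more and 43 held 5 or more. The fullest were *Tmem121* to *Adam6b* with 11 and *Nphp4* to *Ajap1* with 10, followed by *Foxl1* to *1700018B08Rik* and *Vrk1* to *Gm46320* with 9 each. The gap from *Runx1*, a factor of blood and bone development, to *Setd4*, a methyltransferase gene, held 7, with median folds of 5.25 and 5.38. It is named after its values were seen and is 757 kb wide. Narrower gaps held as many or more, such as *Luc7l* to *Neurl1b* with 8 in 129 kb and *Pfdn4* to *Dok5* with 7 in 213 kb. These counts make no allowance for the width of a gap. Linking each region to both bordering genes within 100 kb raised the genes with 3 or more regions from 190 to 352.

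Regions were also counted by how close they lay to each other, and the shares expected from their density alone were not computed. Another region lay within 1 kb of 264 of them, or 8.38% (7.46 to 9.40%), within 10 kb of 633 (20.1%) and within 50 kb of 1396 (44.3%). Part of this is the same peak counted more than once, since 202 regions shared a replicate 2 peak with another and 10 shared a replicate 1 peak. Counting distinct peaks in place of regions left 159 genes with 3 or more.

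Most genes with the strongest regions had only 1 or 2. The highest fold was at chr15:75086736-75086951, 21.2 kb from *Ly6c2*, which encodes a surface protein of monocytes, with 20.6 in replicate 1 and 23.7 in replicate 2. It rested on 47 and 108 fragments, and its background was 2.77 and 2.79 times the library median. A region 20.7 kb from *Tbc1d8*, a gene with a Rab GTPase-activating domain, had folds of 15.8 and 16.1, also at a high background of 2.79 and 2.51 times.

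The region 76.6 kb on the 5′ side of *Eomes*, a T-box factor gene of early development, had folds of 13.9 and 17.7. At *Aldh1a2*, which encodes a retinaldehyde dehydrogenase that makes retinoic acid, a region 27.6 kb away on the 3′ side had folds of 12.6 and 12.6 and a second region had 7.62 and 4.76. The background was 2.56 and 1.63 times the library median at the *Eomes* region.

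The other genes of the 10 regions were *Sec31a* of the COPII vesicle coat (13.0 and 14.6), *Mat2b*, the regulatory subunit gene of methionine adenosyltransferase (14.1 and 12.6), and the vomeronasal receptor gene *Vmn2r87* (13.7 and 12.4). They also included *D16Ertd472e* (12.3 and 15.5), the Ras-related GTPase gene *Mras* (12.0 and 12.7) and *Kcnip1*, a potassium channel interacting protein gene (11.8 and 12.2). The background at the *Sec31a* region was 2.42 and 2.58 times the library median and at the *Kcnip1* region 2.17 and 2.22 times. With the limit of 2 times in both replicates, 4 of the 10 regions drop out, those near *Ly6c2*, *Tbc1d8*, *Sec31a* and *Kcnip1*. *Sec31a* had 3 regions, *Mras* and *Vmn2r87* had 2, and the others 1. The *Kcnip1* region overlapped an annotated gene of another type, as did 41 of the 3151 regions, of which 23 lay in pseudogenes, 6 in transcribed pseudogenes, 4 in genes of miscellaneous RNA and 8 in immune receptor segments or other loci.

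Gene lists of facial development and of cell types that a dissected maxillary process may hold were counted next. They were read beside the 13.4% of all coding genes with 1 or more regions and the 1.12% with 3 or more, and beside the median of 18.03 kb of eligible sequence per gene, since wide gaps have more room. Densities per Mb are given without an interval, and several rest on few regions. A density above or below that over all genes is thus a description only. The median number of regions per gene was 0 over all genes and over the lists, except the epithelial list, with 1, and the *Dlx* genes, with 0.5.

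Of the 51 facial mesenchyme transcription factor genes with eligible sequence, 21 had a region, or 41.2% (28.8 to 54.8%), and 2 had 3 or more. Their median eligible sequence was 98.0 kb, and they had 7.01 regions per Mb against 5.20 over all genes. In the single replicates these genes had 14.9 and 30.2 peaks per Mb against 12.0 and 25.5. The list was led by *Tbx3* with 4 and by *Msx1*, a homeobox factor gene of tooth and palate development, with 3. The *Msx1* regions lay 50.4 to 95.5 kb on its 5′ side and had even folds, from 3.88 to 4.15 in replicate 1 and from 3.80 to 4.10 in replicate 2, all below the medians of all the regions. *Gsc*, *Foxf1*, *Lhx8*, *Sox9*, *Ebf2* and *Twist2* had 2 each.

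Signalling genes were similar. Of 64 ligand, receptor and effector genes, 26 had a region, or 40.6% (29.5 to 52.9%), and 3 had 3 or more, with 7.79 regions per Mb and a median of 81.8 kb of eligible sequence. The peak densities were 17.9 and 35.4 per Mb in the single replicates. *Gli2*, a transcriptional effector of Hedgehog signalling, had 4 regions, 3 of them on its 5′ side, and the strongest, 88.4 kb away, had folds of 8.20 and 5.89. *Bmp7*, a BMP ligand gene, had 3 with folds of 3.70 to 6.77 and 3.19 to 7.80, at a median background of 2.23 and 1.71 times the library median. *Hes1*, a target and effector of Notch signalling, had 3 with folds of 3.37 to 5.39 and 3.75 to 5.59. *Notch1*, *Ptch1*, *Bmp2*, *Smad7*, *Wnt7b*, *Cyp26b1* and *Aldh1a2* had 2 each, and both *Notch1* regions had a background over 2 times the library median.

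The *Dlx* genes had 4 regions among them. *Dlx6* had 1, 62.6 kb away toward *Sem1* at chr6:6800324-6800769, where the fold was 8.79 in replicate 1 and 11.4 in replicate 2. *Dlx2* itself had 2 on its 5′ side. The nearer, 10.7 kb away, had folds of 4.88 and 5.71, and the farther, 97.5 kb away and 15 bp long, had 3.34 and 2.97. *Dlx4* had 1, with folds of 5.34 and 4.01, and *Dlx1*, *Dlx3* and *Dlx5* had none. Since the 6 genes share only 0.236 Mb of eligible sequence, their 17.0 regions per Mb rests on 4 regions.

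Axon guidance and neuronal adhesion genes had the widest gaps, with a median of 128 kb of eligible sequence, and fewer regions for their width. Of 51 genes, 17 had a region, or 33.3% (22.0 to 47.0%), and 1 had 3 or more, *Cdh6*, a cadherin gene. The density was 3.68 regions per Mb, below the 5.20 over all genes, and the peak densities of 6.76 and 11.9 per Mb were also below those over all genes in both replicates. *Epha4*, *Efnb2*, *Sema6a*, *Cntn5*, *Cntnap2* and *Cdh13* had 2 each. Skeletal and matrix genes had 5 of 24 with a region, or 20.8% (9.24 to 40.5%), at 3.61 regions and 9.62 and 24.6 peaks per Mb, and none with 3. *Sox5*, a factor of cartilage formation, had 2, and *Sp7*, a factor of osteoblasts, *Sox6*, *Postn* and *Col5a2* had 1 each.

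Marker lists of other cell types gave small counts. Among epithelial markers 6 of 11 had 1 region each (54.5%, 28.0 to 78.7%), among them the keratin genes *Krt5*, *Krt8*, *Krt14* and *Krt18*, at 12.4 regions per Mb over 0.485 Mb, with 18.6 and 35.1 peaks per Mb in the single replicates. Among endothelial markers 2 of 9 had a region (22.2%, 6.32 to 54.7%), at 9.54 regions and 28.6 and 33.4 peaks per Mb. These were *Erg*, an ETS factor gene of endothelium, with 4 and *Cdh5*, the VE-cadherin gene, with 2. The *Erg* regions had folds of 4.01 to 5.83 and 3.37 to 6.83, with 3 on the 5′ side.

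Among muscle markers only *Pax7* of 8 genes had regions, with 2 (1 of 8, interval 2.24 to 47.1%), at 6.27 regions and 25.1 and 31.3 peaks per Mb. Of 13 neuron and neural progenitor markers, 2 had 1 region each (15.4%, 4.33 to 42.2%), at 2.12 regions and 3.18 and 16.9 peaks per Mb. Of 7 blood and macrophage markers none had a region, which allows a share of up to 35.4% by the interval, over 0.183 Mb of eligible sequence with 11.0 and 21.9 peaks per Mb. A region near a marker gene does not show in which cells DLX2 sat, and the part of other cell types was not tested.

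**Figure D5:**
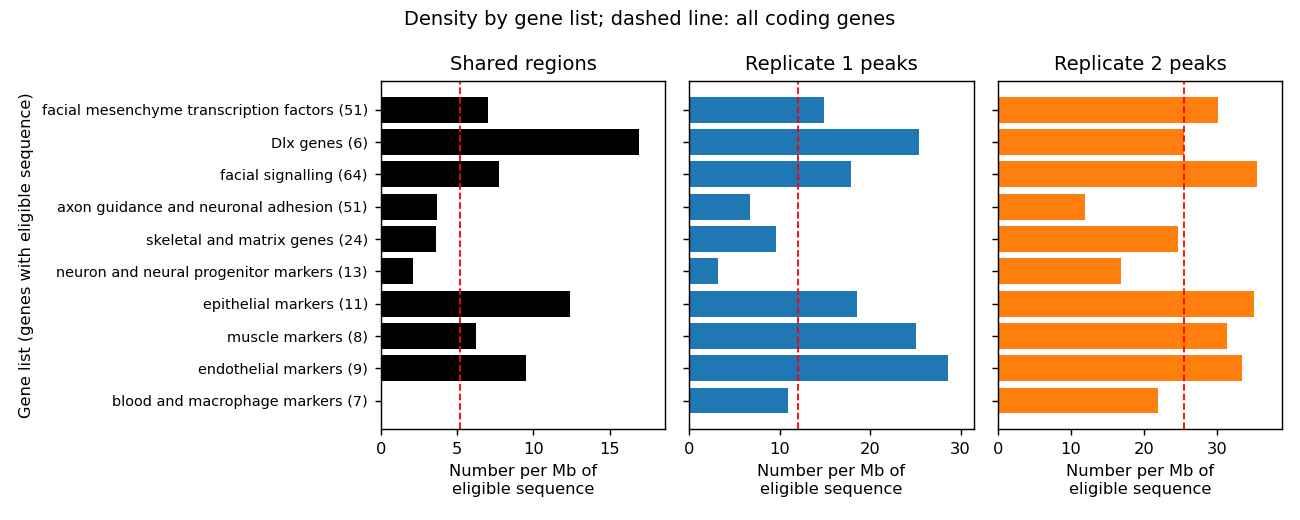
Shared regions, replicate 1 peaks and replicate 2 peaks per Mb of eligible sequence (horizontal axes) for each gene list, with the number of genes in brackets and a dashed line at the value over all coding genes (5.20, 12.0 and 25.5). The mesenchyme factor, signalling, epithelial, muscle and endothelial lists lie to the right of the line in all 3 panels. The axon guidance, skeletal, neuron and blood lists lie to the left in all 3, and the *Dlx* genes lie to the right in 2. No counting error is drawn, and the panels are not independent, since a shared region needs a peak in each replicate. The muscle bar for shared regions rests on 2 regions and the blood bar on 0. The skeletal list is close to the line in replicate 2 (24.6 against 25.5).

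Shared regions were rare at the starts of coding genes in general. Of 13597 genes with eligible sequence and a start window, 23 had one there, or 0.169% (0.113 to 0.254%). Of 151 genes with 3 or more regions and a start window, 1 had a shared region in that window, or 0.662% (0.117 to 3.66%). This was *Wscd1*, a gene of a WSC domain protein, named here after its values were seen. Among genes with no region, 19 of 11802 did, or 0.161% (0.103 to 0.251%). In the single replicates, 2.65% of the 151 starts were met by a replicate 1 peak (1.03 to 6.61%) and 4.64% by a replicate 2 peak (2.26 to 9.26%), against 1.01% and 3.32% over all genes, and with these counts the shares were not told apart.

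The regions were not evenly spread over chromosomes. The density ranged from 3.41 regions per Mb of eligible sequence on chromosome 7 and 3.75 on chromosome 14 to 6.92 on chromosome 5 and 7.01 on chromosome 8. *Zfp326*, *Rph3a*, *Tbx5*, *Tbx3* and *Suds3* lie on chromosome 5 and *Foxl1* on chromosome 8.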

How the data were processed

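Peak lists of DLX2 CUT&Tag from 2 wildtype libraries were used, with 28061 peaks in replicate 1 and 62093 in replicate 2. The submitters' processing notes name Trim Galore 0.4.5, Bowtie 1.1.2, MACS2 2.2.7 and mm10, and the study's methods give other versions and bowtie2. Peaks were called per library by the authors, and the lowest −log10 q in the lists was 1.00 in both replicates. The study's text reports fewer peaks in each replicate and fewer peaks common to both than these lists hold. The deposited fold enrichment was taken as the ratio of summit fragments to local background, with 1 added to both. The deposited −log10 p and −log10 q are the peak caller's, and the deposited score is a rounded −log10 q. Read totals are not given in the sources used here, so the fragments at each summit and the background were recovered from the deposited fold and −log10 p (tolerance 0.001, Poisson tail), which gave whole numbers for 100% of peaks in each replicate. This is an inference, not a count by the authors.

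Shared regions and distances were computed in Python 3.11.15 with scipy 1.17.1, pandas 2.3.3, numpy 2.4.6, matplotlib 3.10.9 and statsmodels 0.14.6, on RefSeq gene extents of GRCm38.p6. Of 47038 genes on chromosomes 1 to 19, 328 listed before position 3000000 were left out, which left 20556 coding and 12324 lncRNA genes. Strand came from RefSeq start windows. A region was linked to its nearest coding gene. Shares carry 95% Wilson intervals for counting error only, and regions are not replicates. The scripts were tested on simulated data.

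The regions and the 10 gene lists were chosen with earlier results of these data known. Named genes were the 15 with the most regions (ties by summed lower fold), those of the 10 regions with the highest lower fold, the 5 densest of those with 5 or more regions, list genes with 4 or more, and *Dlx1* to *Dlx6*. Further list genes are named as examples by their number of regions. Alternatives were a stricter q or fold, a stricter overlap, each replicate alone, other distance limits, joining, linking and gene types, plus a background limit and distinct peaks, both added after the data were seen. No genome sequence was used, so the planned motif shares were not run.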

Additional observations from a re-analysis of the deposited data

Results flagged for a closer look

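Signal lay outside the chromosomes used above. On the X chromosome, 34 of 69 shared regions met the same distance and lncRNA conditions. They were left out because the rule covers chromosomes 1 to 19, and no control library was used to set them against. *Bcor*, a corepressor gene, had 2 of them, with folds of 4.70 and 4.34 for 1 and 7.21 and 6.03 for the other. The highest lower fold was 7.14, near *Phf8*, a histone demethylase gene, with 8.65 in replicate 1. These genes were named after their values were seen.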

How the results depend on the processing

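Of 43 alternatives to the 5 summary values, 18 stayed within a limit and 25 moved past it, where the limit was 1.5 times for a count and the SD of the replicates for a share or distance. Within it, the number of regions still went as low as 2393, with an outer limit of 50 kb, and the genes with 3 or more as low as 159, with neighbouring segments joined or distinct peaks counted. The number of regions (3151) went to 515 at a −log10 q of at least 5 in each replicate, 1173 at a fold of at least 5, 1815 with 50% of each peak covered and 7258 to 15460 without 1 replicate. Their share of shared regions (29.1%) was 30.8% at the stricter q, 30.9% at the stricter fold and 25.3 to 26.1% without 1 replicate. Genes with 3 or more regions (190) numbered 1 at the stricter q, 25 at the stricter fold, 49 at 50% overlap, 108 with summits within 150 bp, 352 when linked to both bordering genes and 667 to 2022 without 1 replicate. The median distance (23.3 kb) was 25.2 kb at the stricter fold and 21.5 to 22.0 kb without 1 replicate. The 5′ share (55.2%) was 60.7% at the stricter q, 58.0% at the stricter fold, 55.0% at 50% overlap, 55.7% with summits within 150 bp and 53.1 to 53.3% without 1 replicate. The cause of these moves was not tested, except that stricter settings keep fewer peaks. For the 34 named genes under 6 settings, 134 of 204 counts were equal, 63 lower and 7 higher, and 48 of the lower and 1 of the higher differed by over 1.5 times. The 300 bp and 100 bp motif windows were not run, since no genome sequence was used. With medians of 7 and 12 fragments at the summit, depth limits the order of regions by fold. No paired analysis was possible because there is 1 group.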
